A study of Mus musculus with 16 samples.

Results

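The secreted and membrane-bound proteases that cut the extracellular matrix, together with their tissue inhibitors, were followed in whole ovary and whole kidney. The set held the 48 protein-coding genes whose symbol is Adamts, Mmp or Timp with a number, plus Plat, Plau and Plaur, out of 55359 gene identifiers counted. It comprised 19 ADAMTS genes, 22 MMP genes, 4 TIMP genes and the 3 genes of plasminogen activation. Female CBAF1 mice of wild-type genotype, 21 days old, carried no transgene or deletion in the labels. They received 7.5 mg/kg PT-2385 in the treated groups, or 5% DMSO in saline as vehicle, by intraperitoneal injection every 12 h over 4 days. PT-2385 inhibits HIF-2α, a transcription factor stabilised by low oxygen, by blocking its pairing with ARNT. All 4 groups (ovary with PT-2385, ovary with vehicle, kidney with PT-2385, kidney with vehicle) also received 5 IU PMSG for 48 h and then 5 IU hCG, gonadotrophins that drive follicle growth and ovulation, and tissue was taken 13 h after hCG. Each group had 4 libraries. Nothing in the labels says that these came from separate animals, so p-values measure the spread between the samples.

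ADAMTS proteins are secreted metalloproteases with thrombospondin repeats, several of which cut the large proteoglycans versican and aggrecan or trim procollagens. MMPs are zinc proteases, some secreted and some anchored in the membrane, that are made as inactive precursors. TIMPs block the active MMPs and some ADAMTS proteins, while the plasminogen activators PLAU and PLAT turn plasminogen into plasmin, which digests fibrin and activates other proteases. In the ovary the surge of luteinising hormone induces Adamts1, whose product cuts versican in the expanding cumulus matrix, and proteolysis of the follicle wall accompanies ovulation. In the kidney, PLAU (urokinase) is made by tubule cells and is found in urine.

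Of the 48 genes, 32 had a promoter sequence from RefSeq (GRCm38.p6), with 35 windows of 250 bases before the transcription start. Plau, Plat, Adamts4 and Adamts16 had no window. The 5 shown here were chosen among the genes with a window. Adamts1 and Timp1 led the levels in ovary, and Mmp11 and Mmp15 were lower in every PT-2385 ovary than in any vehicle ovary. Mmp3 stands for the chromosome 9 run of MMP genes. The 5 windows are Adamts1 (chr16:85803114-85803363, minus strand), Timp1 (chrX:20869916-20870165, plus strand), Mmp11 (chr10:75932503-75932752, minus strand), Mmp15 (chr8:95352046-95352295, plus strand) and Mmp3 (chr9:7445572-7445821, plus strand). Each is written 5′ to 3′ on the gene's strand, and capitals mark matches on either strand to the hypoxia response cores ACGTG and GCGTG, the AP-1 motif TGANTCA, the cyclic AMP response element TGACGTCA and the GC box GGGCGG.
Adamts1: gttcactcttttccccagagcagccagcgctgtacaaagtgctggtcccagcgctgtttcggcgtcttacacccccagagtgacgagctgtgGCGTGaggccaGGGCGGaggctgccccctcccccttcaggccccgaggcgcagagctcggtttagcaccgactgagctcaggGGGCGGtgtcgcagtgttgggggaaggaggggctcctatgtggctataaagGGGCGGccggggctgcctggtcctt
Timp1: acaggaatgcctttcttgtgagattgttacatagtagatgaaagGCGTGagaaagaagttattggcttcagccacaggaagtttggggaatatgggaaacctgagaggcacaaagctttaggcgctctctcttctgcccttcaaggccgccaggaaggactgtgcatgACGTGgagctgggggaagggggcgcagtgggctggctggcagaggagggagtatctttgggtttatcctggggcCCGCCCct
Mmp11: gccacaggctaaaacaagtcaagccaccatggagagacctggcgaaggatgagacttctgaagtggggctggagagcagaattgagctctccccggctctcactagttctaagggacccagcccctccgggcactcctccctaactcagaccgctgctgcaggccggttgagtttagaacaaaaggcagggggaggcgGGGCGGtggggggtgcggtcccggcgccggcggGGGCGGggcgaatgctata
Mmp15: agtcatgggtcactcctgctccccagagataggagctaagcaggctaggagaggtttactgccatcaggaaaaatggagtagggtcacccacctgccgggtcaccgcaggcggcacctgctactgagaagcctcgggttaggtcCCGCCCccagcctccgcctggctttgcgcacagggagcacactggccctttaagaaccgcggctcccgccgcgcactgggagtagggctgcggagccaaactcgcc
Mmp3: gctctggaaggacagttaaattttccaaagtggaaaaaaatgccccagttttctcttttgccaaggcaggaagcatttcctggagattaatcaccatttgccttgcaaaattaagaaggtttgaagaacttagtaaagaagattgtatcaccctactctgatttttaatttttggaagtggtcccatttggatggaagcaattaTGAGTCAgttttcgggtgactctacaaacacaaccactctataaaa

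The window of Timp1 held both an ACGTG and a GCGTG core besides a GC box, that of Adamts1 a GCGTG core and 3 GC boxes, and those of Mmp11 and Mmp15 had GC boxes as their marked matches. Over the windows of the set, 20% held ACGTG and 34.3% GCGTG, against 16.6% and 28.2% of all 32851 windows of that length. AP-1 matches stood in 22.9% of the set's windows against 6.75% of all, and GC boxes in 48.6% against 32.7%. TGACGTCA was in 0 of the 35 windows and in 1.55% of all windows. Neighbouring matches can share bases, and a match is a stretch of letters, not a measured binding site.

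Position separated these sequence features. Mmp13, Mmp12, Mmp1b, Mmp3, Mmp10, Mmp8, Mmp27, Mmp20 and Mmp7 lie in 1 run of 427 kb on chromosome 9 (7272514 to 7699586, GRCm39), with no other member between them. Of the 11 windows of these 9 genes, 7 held AP-1 and 0 held a GC box, with 37.2% to 53.2% G and C. Of the 24 windows of the other members, 1 held AP-1 (that of Plaur) and 17 held a GC box, with 53.6% to 79.2% G and C. The genes of the run were also low, and most were near the floor of the measurement (3 passed the count filter in each organ). Their mean level per length (TPM, counts divided by exon length and scaled to a total of 1e6 per library) ran from 0.00792 to 3.83 in ovary with PT-2385 and from 0.00677 to 2.89 in ovary with vehicle, Mmp3 being the highest in both. In kidney they ran from 0 to 0.992 with PT-2385 and from 0 to 1.1 with vehicle. Other neighbours are Adamts1 and Adamts5, 53.1 kb apart on chromosome 16, and Adamts15 and Adamts8, 20.1 kb apart on chromosome 9.

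Depth ran from 12.7 to 43.3 M assigned read pairs per library (1 M is 1e6). The members took 0.444% to 0.584% of the pairs in ovary and 0.296% to 0.334% in kidney. The granulosa, oocyte and proximal tubule markers matched the labelled organs. The granulosa genes Foxl2, Fshr and Cyp19a1 and the oocyte genes Zp3 and Oosp1 were at 0 counts in all kidney libraries. In kidney the granulosa list summed to at most 6.39 CPM (counts per 1e6 counts) and the oocyte list to at most 3.06 CPM. In ovary these lists summed to at least 1637 and 314 CPM. The summed proximal tubule markers were at most 5.63 CPM in 7 of the 8 ovary libraries and 54.8 CPM in vehicle replicate 1. The ovarian surface and oviduct markers did not separate the organs, at 119 to 148 CPM in ovary and 136 to 147 CPM in kidney. Ovary vehicle replicate 3 has a file numbered 5, and the file of kidney PT-2385 replicate 3 has another flow-cell code than the rest. Results of the members that turn on these libraries are therefore given with and without them. Values of list and marker genes are given with all libraries only. In whole organs, fewer cells of a type and less RNA per cell cannot be told apart. In ovary, 9 of the 18125 genes in the test had an adjusted p under 0.05 (edgeR quasi-likelihood test, Benjamini-Hochberg over all genes), and in kidney 982 of 17763.

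The ovary was dominated by an inhibitor and by Adamts1. Timp1, a secreted inhibitor of most MMPs, had the highest level per length of the set, at 2941 ± 252 TPM with PT-2385 and 2292 ± 471 TPM with vehicle (mean ± SD, n = 4). Adamts1 came next at 963 ± 126 TPM with PT-2385 and 820 ± 204 TPM with vehicle, and its 4 libraries lay below those of Timp1 in both groups. Plau followed at 368 ± 40.3 TPM with PT-2385 and 330 ± 54.1 TPM with vehicle, and then Mmp2, the gelatinase that degrades basement membrane collagen, at 224 ± 33.5 TPM with PT-2385 and 254 ± 26.6 TPM with vehicle. Plau and Mmp2 did not overlap in the PT-2385 libraries but did in the vehicle libraries. Mmp14, the membrane-type MMP that activates the precursor of MMP2, was at 174 ± 12.2 TPM with PT-2385 and 197 ± 8.6 TPM with vehicle. The TIMP genes together made up 54.3% to 57.2% of the summed level of the set in the PT-2385 ovaries and 47.5% to 53.3% in the vehicle ovaries, ranges that did not overlap. The summed TIMP level itself overlapped, at 2930 to 3478 TPM with PT-2385 and 2079 to 3072 TPM with vehicle. The MMP genes made up 10.6% to 14.1% with PT-2385 and 13.2% to 19.0% with vehicle, while their summed level was just apart, at 640 to 757 TPM with PT-2385 and 759 to 840 TPM with vehicle. Shares of the set depend on each other, and neither was tested.

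The kidney had another order. Timp3, the inhibitor that stays bound to the matrix, led at 795 ± 55.3 TPM with PT-2385 and 825 ± 44.4 TPM with vehicle. Plau came next at 612 ± 34.7 TPM with PT-2385 and 776 ± 79.9 TPM with vehicle. It lay below Timp3 in all PT-2385 kidneys, while the vehicle ranges of Timp3 and Plau overlapped. Plat, the tissue-type activator, stood at 102 ± 7.6 TPM with PT-2385 and 82.7 ± 8.72 TPM with vehicle, and Timp2 at 62.5 ± 1.53 TPM with PT-2385 and 62 ± 5.34 TPM with vehicle. The plasminogen activation genes made up 39.7% to 44.7% of the summed level in PT-2385 kidneys and 44.0% to 47.7% in vehicle kidneys.

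The organs differed most in Timp1. The ratios that follow are vehicle ovary over vehicle kidney on the level per length and are given as a description, since RNA of the organs was isolated by different methods (a column kit for ovary, Trizol for kidney). The ratio was 1246 for Timp1, 89.4 for Mmp19, a secreted MMP, 44.2 for Adamts4, a protease of aggrecan and versican, and 25.9 for Adamts1. It was 23.1 for Mmp2 and 13.5 for Mmp14. It was below 1, with ranges apart, for Timp3 (0.179), Adamts8 (0.178), Mmp13 (0.199), Adamts15 (0.309), Adamts16 (0.351) and Plau (0.425). Some of these ratios rest on few read pairs and are imprecise. The vehicle kidney libraries held 13 to 23 read pairs of Timp1 and 23 to 44 of Mmp19. For Mmp13 the vehicle ovary libraries held 4 to 10, below the count filter. Adamts13, which cuts von Willebrand factor, averaged 0.0173 TPM in vehicle ovaries and 0.405 TPM in vehicle kidneys, also with ranges apart.

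**Figure D1:**
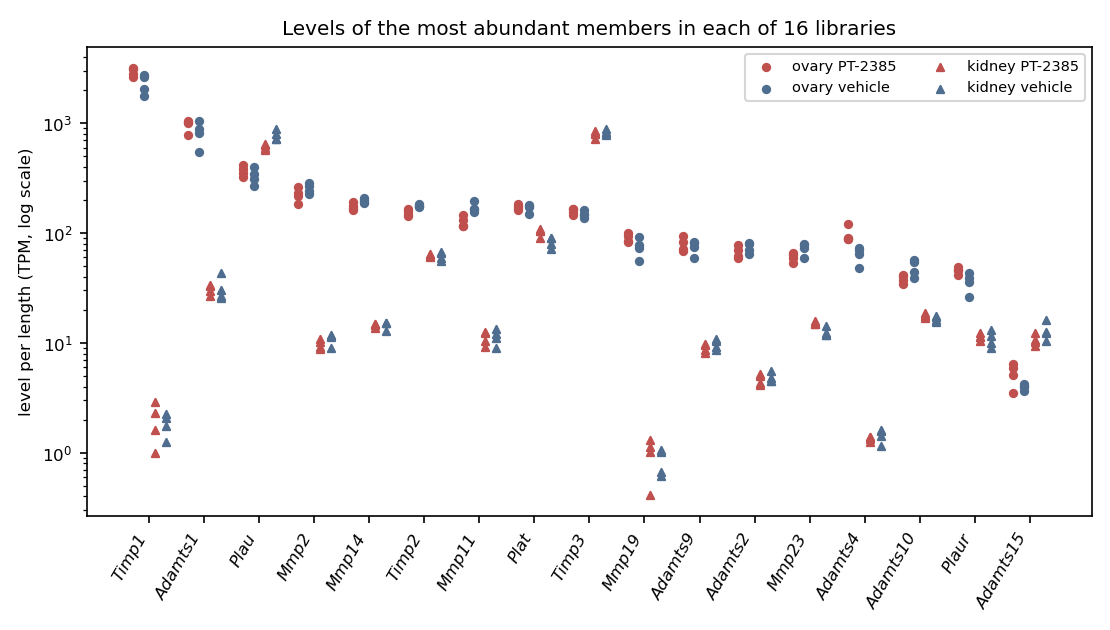
Level per length (TPM, log scale) of 17 abundant members in each library, with ovary as circles, kidney as triangles, PT-2385 in red and vehicle in blue. Timp1 lies near 2941 TPM in PT-2385 ovaries and near 1.94 TPM in PT-2385 kidneys, while Timp3 and Plau are higher in kidney.

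The comparison of PT-2385 with vehicle in ovary asked whether blocking HIF-2α altered the protease system at ovulation. Adjusted over all genes, 0 of 39 tested members were called, against 0.0497% of all genes (0.00552% higher and 0.0441% lower). At an unadjusted p under 0.05, 5 members were higher and 10 lower with PT-2385, where 5.74% of all genes were higher and 7.45% lower. DESeq2 called 3 members (Adamts4 higher, Mmp11 and Adamts16 lower) among 323 genes in all, and limma-voom called 0 members among 3 genes. The median log2 fold change of the tested members was −0.09, against −0.00 for all genes. The groups did not overlap for 10 of the 39 members (2 higher, 8 lower), or 25.6%, against 6.95% of all genes (3.18% higher and 3.77% lower). With each ovary library left out in turn the share of members was between 25.6% and 43.6%, against 8.35% to 22.4% of all genes, the highest values being those without vehicle replicate 3, where 17 members did not overlap.

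Among the proteoglycan-cutting ADAMTS genes, Adamts4 (chromosome 1, 171077990 to 171088206, GRCm39, as are all gene coordinates here) had 171, 162, 225 and 162 CPM in the PT-2385 ovaries, against 112, 88.5, 126 and 133 CPM in the vehicle ovaries. Every PT-2385 library was above every vehicle library, and PT-2385 replicate 3 stood above its own group. The mean was 180 ± 30.2 CPM with PT-2385 and 115 ± 19.7 CPM with vehicle (SD, n = 4), a log2 fold change of 0.65 (edgeR adjusted p = 0.114, SE 0.138).

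Adamts1 (chromosome 16, 85590715 to 85600001), whose window holds the GCGTG core shown above, had 1991, 1857, 1979 and 1445 CPM in the PT-2385 ovaries, against 1565, 1019, 1494 and 1934 CPM in the vehicle ovaries. The groups overlapped: PT-2385 replicate 4 was below 3 of the vehicle libraries, and vehicle replicate 2 was the lowest of all. The log2 fold change was 0.27 (edgeR adjusted p = 0.514, SE 0.171), and 0.13 without vehicle replicate 2. Vcan, which encodes versican, the substrate of ADAMTS1 in the cumulus matrix, averaged 2626 ± 329 CPM with PT-2385 and 1995 ± 497 CPM with vehicle (edgeR adjusted p = 0.356, log2 fold change 0.40).

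The other proteoglycanases were close to vehicle or scattered. Adamts5, a major aggrecanase, had a log2 fold change of 0.12 (edgeR adjusted p = 0.614) and Adamts9 one of 0.13 (edgeR adjusted p = 0.672). Adamts15 had 8.27, 11.4, 13.6 and 14.5 CPM with PT-2385, against 9.06, 9.16, 8.15 and 9.05 CPM with vehicle. PT-2385 replicate 1 lay within the vehicle range and the other 3 above it (edgeR adjusted p = 0.239, log2 fold change 0.45).

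Of the ADAMTS genes with lower values, Adamts16 (chromosome 13, 70875921 to 70989930) had 0.886, 0.81, 0.565 and 1.07 CPM in the PT-2385 ovaries, against 2.49, 2.12, 1.36 and 1.29 CPM in the vehicle ovaries. The groups did not overlap, and vehicle replicates 1 and 2 were the highest. The mean was 0.832 ± 0.208 CPM with PT-2385 and 1.82 ± 0.586 CPM with vehicle, the log2 fold change farthest from 0 among the 39 tested members, at a value of −1.11 (edgeR adjusted p = 0.159, SE 0.28). The libraries behind these values held 14 to 34 read pairs of the gene with PT-2385 and 38 to 77 with vehicle.

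Adamts12, which with Adamts7 cuts cartilage oligomeric matrix protein (chromosome 15, 11064895 to 11349317), had 34.2, 46.7, 38.3 and 39.8 CPM in the PT-2385 ovaries, against 47.2, 53.9, 46.9 and 47.4 CPM in the vehicle ovaries. The groups came close without overlapping, since PT-2385 replicate 2 almost reached the vehicle range. The log2 fold change was −0.30 (edgeR adjusted p = 0.211, SE 0.0895). Adamts7 itself had 32.2, 32.5, 32.1 and 33 CPM with PT-2385, against 29.5, 30.7, 31.5 and 29.4 CPM with vehicle. That was a narrow separation in the other direction (edgeR adjusted p = 0.494, log2 fold change 0.10).

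The procollagen N-proteinases Adamts2, Adamts3 and Adamts14 had log2 fold changes of −0.10, −0.09 and −0.41 in ovary. Adamts14 was the member of this trio whose groups did not overlap, at 2.3 to 3.43 CPM with PT-2385 and 3.49 to 4.27 CPM with vehicle (edgeR adjusted p = 0.298). Adamts10, linked to fibrillin microfibrils, had a log2 fold change of −0.30 (edgeR adjusted p = 0.264). Adamts6 separated the groups at 7.55 to 9.76 CPM with PT-2385 and 10.1 to 11.2 CPM with vehicle.

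Among the MMP genes the lowest p belonged to Mmp11 (chromosome 10, 75759056 to 75768336), which encodes stromelysin-3, an MMP that furin activates inside the cell. It had 107, 114, 104 and 126 CPM in the PT-2385 ovaries, against 162, 143, 143 and 136 CPM in the vehicle ovaries. All 4 PT-2385 libraries were below all 4 vehicle libraries. The mean was 113 ± 10.1 CPM with PT-2385 and 146 ± 11.2 CPM with vehicle, a log2 fold change of −0.37 (edgeR adjusted p = 0.0948, SE 0.0788).

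Mmp15, a membrane-type MMP (chromosome 8, 96078896 to 96101708), had 31.6, 33.7, 27.9 and 34.5 CPM in the PT-2385 ovaries, against 39.8, 49.5, 35.8 and 39.7 CPM in the vehicle ovaries. The groups did not overlap, and vehicle replicate 2 was the highest. The log2 fold change was −0.37 (edgeR adjusted p = 0.185, SE 0.1). Mmp28, also called epilysin, separated the groups at 2.42 to 2.7 CPM with PT-2385 and 2.94 to 4.27 CPM with vehicle (edgeR adjusted p = 0.339, log2 fold change −0.39).

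Mmp2, the most abundant MMP gene in ovary per length, had 224, 268, 258 and 310 CPM in the PT-2385 ovaries, against 297, 282, 331 and 264 CPM in the vehicle ovaries. The groups overlapped widely (edgeR adjusted p = 0.55, log2 fold change −0.15). Mmp14 had a log2 fold change of −0.14 (edgeR adjusted p = 0.446), and Mmp9, the other gelatinase, was near 1 CPM in both groups. Mmp19 was at 108 to 135 CPM with PT-2385 and 73 to 119 CPM with vehicle (edgeR adjusted p = 0.339, log2 fold change 0.31). Gene models on the other strand share 29.0% of the exon bases of Mmp19, and the counts did not use strand.

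Of the inhibitors, Timp1 (chromosome X, 20736405 to 20740974) had 1105, 954, 1086 and 893 CPM in the PT-2385 ovaries, against 659, 592, 877 and 930 CPM in the vehicle ovaries. PT-2385 replicate 4 fell inside the vehicle range and the other 3 lay above it. The log2 fold change was 0.40 (edgeR adjusted p = 0.262, SE 0.14). Timp2, which also takes part in the activation of MMP2 at the cell surface, had 233, 231, 213 and 203 CPM with PT-2385, against 235, 259, 241 and 250 CPM with vehicle. The groups were apart by a small margin (edgeR adjusted p = 0.349, log2 fold change −0.16).

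Timp3 had 291, 298, 299 and 262 CPM in the PT-2385 ovaries, against 254, 247, 288 and 263 CPM in the vehicle ovaries, overlapping (edgeR adjusted p = 0.48, log2 fold change 0.13). Timp4 was rare, with 5.49, 5.86, 6.62 and 7.34 CPM with PT-2385, against 5.05, 5.15, 5.63 and 7.02 CPM with vehicle (edgeR adjusted p = 0.673, log2 fold change 0.16). So 3 TIMP genes had positive and 1 a negative estimate, none past the threshold.

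The 3 genes of plasminogen activation all had positive estimates in ovary that missed the threshold. Plaur, the receptor that holds urokinase at the cell surface (chromosome 7, 24161909 to 24175392), had 27.6, 26.5, 28.7 and 24 CPM in the PT-2385 ovaries, against 19.7, 15.1, 24.4 and 22.2 CPM in the vehicle ovaries. PT-2385 replicate 4 was just below vehicle replicate 3 and the rest were apart. The log2 fold change was 0.39 (edgeR adjusted p = 0.232, SE 0.126).

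Plau (chromosome 14, 20886728 to 20893453) had 357, 311, 377 and 289 CPM in the PT-2385 ovaries, against 264, 239, 350 and 306 CPM in the vehicle ovaries. The groups overlapped (log2 fold change 0.20, edgeR adjusted p = 0.498, SE 0.121). Plat (chromosome 8, 23247763 to 23272860) had 162, 163, 181 and 171 CPM with PT-2385, against 163, 143, 172 and 164 CPM with vehicle, also overlapping (log2 fold change 0.08, edgeR adjusted p = 0.676, SE 0.0723). Plg, which encodes plasminogen and is made mainly in liver, had too few reads in ovary to be tested.

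**Figure D2:**
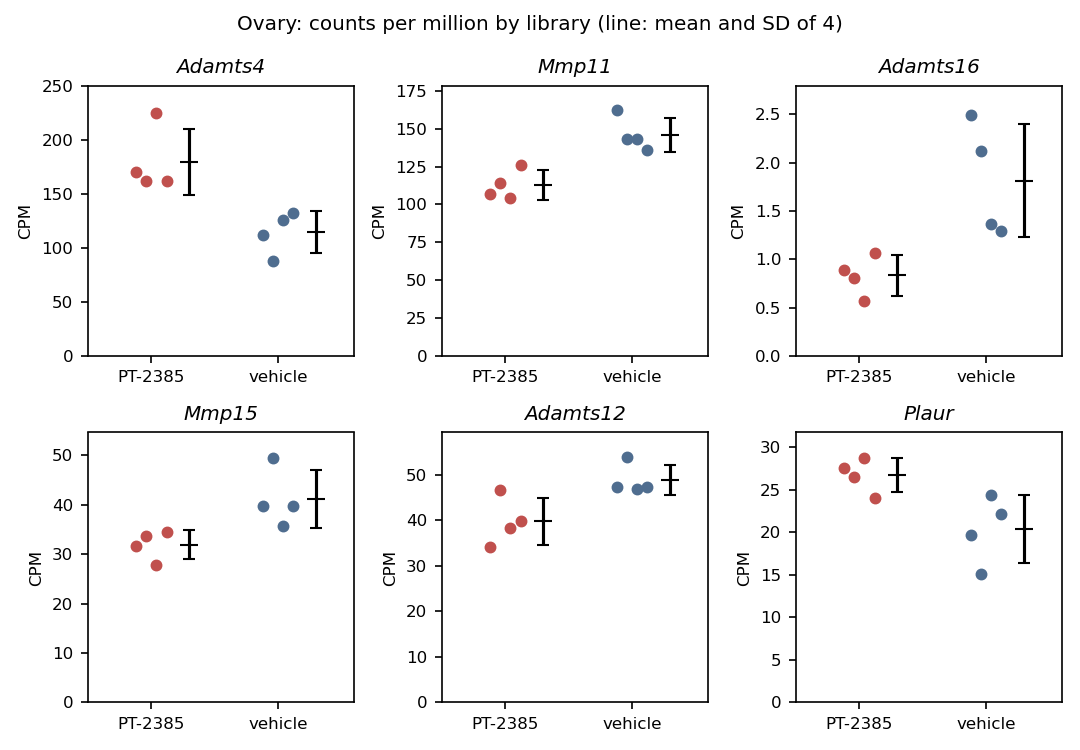
CPM in each ovary library for the 6 members with the smallest p in ovary, PT-2385 left of vehicle, with the mean and SD of 4 libraries beside the points. The groups do not overlap except for Plaur, and Adamts4 in PT-2385 replicate 3 stands at 225 CPM.

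Single libraries set much of the spread in ovary. Vehicle replicate 2 was the lowest of the 8 libraries for 10 of the 17 members with a positive log2 fold change. It was the highest for 10 of the 22 with a negative one. PT-2385 replicate 3 was the highest for 9 of those 17 and the lowest for 9 of those 22. The split by sign itself puts vehicle libraries low and PT-2385 libraries high among positive members, and the reverse among negative ones. Without vehicle replicate 2 the log2 fold change was 0.54 for Adamts4, −0.38 for Mmp11, −0.27 for Mmp15 and 0.27 for Plaur, and none of the 39 members was called. Without vehicle replicate 3, edgeR called 6 members: Mmp11 (adjusted p = 0.0249), Mmp15 and Adamts16 (both 0.0276), Plaur (0.0358), Adamts10 and Mmp23. Over all genes, leaving out that library moved the calls to 1090. The 6 members with the smallest p kept their direction with each library left out. They were picked on these same libraries, and all but Plaur had groups that did not overlap. Their direction could therefore hardly turn, so this is no separate support.

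Cell type markers were read beside these values. The summed granulosa markers came to 1848 to 2420 CPM in PT-2385 ovaries and 1637 to 1996 CPM in vehicle ovaries, with 0 of 6 called, and the theca sums to 1333 to 1429 CPM with PT-2385 and 1238 to 1536 CPM with vehicle. The 5 endothelial markers summed to 478 to 522 CPM with PT-2385 and 503 to 604 CPM with vehicle, and the 7 macrophage and monocyte markers to 75.4 to 92.3 CPM with PT-2385 and 80.8 to 111 CPM with vehicle. The 8 neutrophil markers summed to 6.24 to 9.92 CPM with PT-2385 and 4.57 to 12.5 CPM with vehicle, with Elane at 0. Of the 4 neutrophil markers tested, 3 had positive and 1 a negative log2 fold change, with 0 called. The negative one was Ltf (−1.77), at 1.01 ± 0.295 CPM with PT-2385 and 3.42 ± 3.72 CPM with vehicle. The sums of all these lists overlapped between the groups. The 6 markers of other nephron segments did not, at 35.1 to 36.4 CPM with PT-2385 and 24.3 to 30.9 CPM with vehicle, with 0 called. Aqp2, the water channel of the collecting duct, had a log2 fold change of 0.65 (edgeR adjusted p = 0.0554). Nphs1, a defining marker of podocytes, was at 0 in the PT-2385 ovaries. The part of all these markers in the members' values was not tested.

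**Figure D3:**
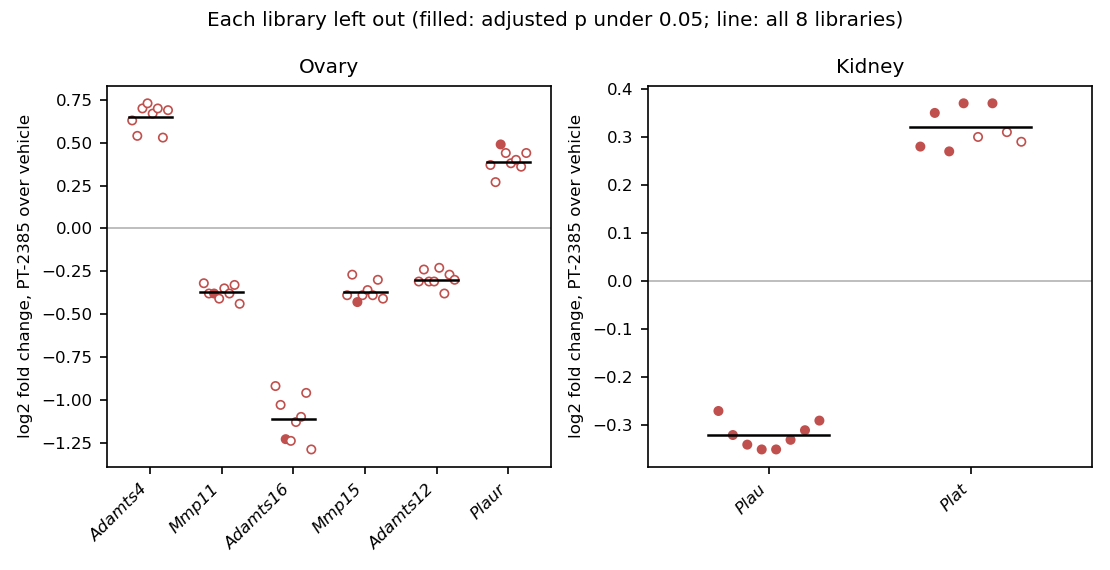
Log2 fold change of PT-2385 over vehicle (vertical axis) with each of the 8 libraries of the organ left out, for 6 members in ovary and 2 in kidney, each point being a fit without 1 library and filled where the adjusted p was under 0.05, the line being the fit with all 8. In ovary the filled points are those of Mmp11, Adamts16, Mmp15 and Plaur without vehicle replicate 3, while in kidney every point of Plau is filled, with values from −0.35 to −0.27.

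In kidney the same comparison was made in the same treatment design. The activators of plasminogen moved in opposite directions: Plau fell and Plat rose, and these were the 2 of 37 tested members past the threshold, or 1 in each direction, where 5.53% of all genes were called (1.83% higher and 3.7% lower). At that background the count says nothing particular about the set. The median log2 fold change of the tested members was 0.03, against 0.01 for all genes, and the groups did not overlap for 4 of 37 members (10.8%), against 13.3% of all genes (1 higher against 5.37%, 3 lower against 7.89%). Without vehicle replicate 3 that count was 9 members (24.3%, against 19.9% of all genes).

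Plau had 714, 688, 656 and 622 CPM in the PT-2385 kidneys, against 917, 846, 799 and 783 CPM in the vehicle kidneys. Every PT-2385 library was below every vehicle library. The mean was 670 ± 40.3 CPM with PT-2385 and 836 ± 60.2 CPM with vehicle, a log2 fold change of −0.32 (edgeR adjusted p = 0.00704, SE 0.0583). Plau was called without each library in turn, but in a fit of all 16 libraries its adjusted p was 0.109.

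Plat had 124, 106, 123 and 127 CPM in the PT-2385 kidneys, against 89.5, 102, 86.8 and 107 CPM in the vehicle kidneys. The groups touched: PT-2385 replicate 2 was just below vehicle replicate 4. The mean was 120 ± 9.13 CPM with PT-2385 and 96.4 ± 9.72 CPM with vehicle, a log2 fold change of 0.32 (edgeR adjusted p = 0.0194, SE 0.0702). The adjusted p was 0.055, 0.0743 and 0.0747 without PT-2385 replicates 1, 3 and 4, and 0.0618 in the fit of all 16 libraries.

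Plaur had 8.09, 8.64, 7.26 and 8 CPM in the PT-2385 kidneys, against 8.84, 6.81, 6.43 and 8.13 CPM in the vehicle kidneys, with overlapping groups (edgeR adjusted p = 0.768, log2 fold change 0.07). Plg was at 0.457 ± 0.119 CPM with PT-2385 and 0.517 ± 0.228 CPM with vehicle (edgeR adjusted p = 0.848, log2 fold change −0.14).

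The kidney's dominant inhibitor was level. Timp3 had 1597, 1749, 1858 and 1813 CPM in the PT-2385 kidneys, against 1756, 1883, 1754 and 1793 CPM in the vehicle kidneys (log2 fold change −0.03, edgeR adjusted p = 0.753, SE 0.054). Timp2 had 110, 108, 111 and 105 CPM with PT-2385, against 98.9, 113, 98.5 and 114 CPM with vehicle (edgeR adjusted p = 0.783, log2 fold change 0.03). The groups overlapped in both genes. Timp1 and Timp4 were at 1.43 CPM or less in every kidney library.

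Among the MMP genes of the kidney, Mmp23, which has a membrane anchor at its amino end, had 10.2, 10.4, 9.87 and 9.95 CPM in the PT-2385 kidneys, against 7.54, 7.67, 8.49 and 9.64 CPM in the vehicle kidneys. All PT-2385 libraries were above all vehicle libraries, vehicle replicate 4 being close below them. The log2 fold change was 0.28 (edgeR adjusted p = 0.0889, SE 0.0932), and the adjusted p was 0.0378 without vehicle replicate 4. Mmp11 had 11.3, 9.73, 13.4 and 13.1 CPM with PT-2385, against 9.18, 13.9, 12.1 and 13 CPM with vehicle (edgeR adjusted p = 0.986, log2 fold change 0.01). Mmp2 and Mmp14 had log2 fold changes of −0.17 and 0.01.

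Of the ADAMTS genes, Adamts8 had 4.84, 5.02, 4.9 and 4.64 CPM in the PT-2385 kidneys, against 7.24, 6.89, 5.16 and 5.08 CPM in the vehicle kidneys. The groups were just apart, vehicle replicates 1 and 2 being well above the others (log2 fold change −0.33, edgeR adjusted p = 0.131, SE 0.129). An antisense gene model, Gm29724, shares 13.5% of its exon bases. Adamts13 had 0.303, 0.393, 0.687 and 0.561 CPM with PT-2385, against 1.07, 1.23, 0.525 and 0.791 CPM with vehicle, overlapping at a level of few reads (log2 fold change −0.80, edgeR adjusted p = 0.136, SE 0.311).

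Adamts5 had 36.7, 41.1, 41 and 35.6 CPM in the PT-2385 kidneys, against 33.5, 35.1, 36.2 and 35.4 CPM in the vehicle kidneys, with vehicle replicate 3 inside the PT-2385 range (log2 fold change 0.14, edgeR adjusted p = 0.176, SE 0.0596). Adamts3 separated the groups at 0.898 to 1.1 CPM with PT-2385 and 1.15 to 1.71 CPM with vehicle (edgeR adjusted p = 0.177, log2 fold change −0.46). Adamts1 had 76.4, 76.5, 60.6 and 67.5 CPM with PT-2385, against 95.1, 67.4, 59.4 and 61.7 CPM with vehicle (edgeR adjusted p = 0.958, log2 fold change −0.02). Adamts4 had 3.03, 3.14, 3.09 and 2.8 CPM with PT-2385, against 3.47, 2.5, 3.24 and 3.58 CPM with vehicle (edgeR adjusted p = 0.771, log2 fold change −0.08). Both of these ovary-rich genes overlapped between the kidney groups.

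**Figure D4:**
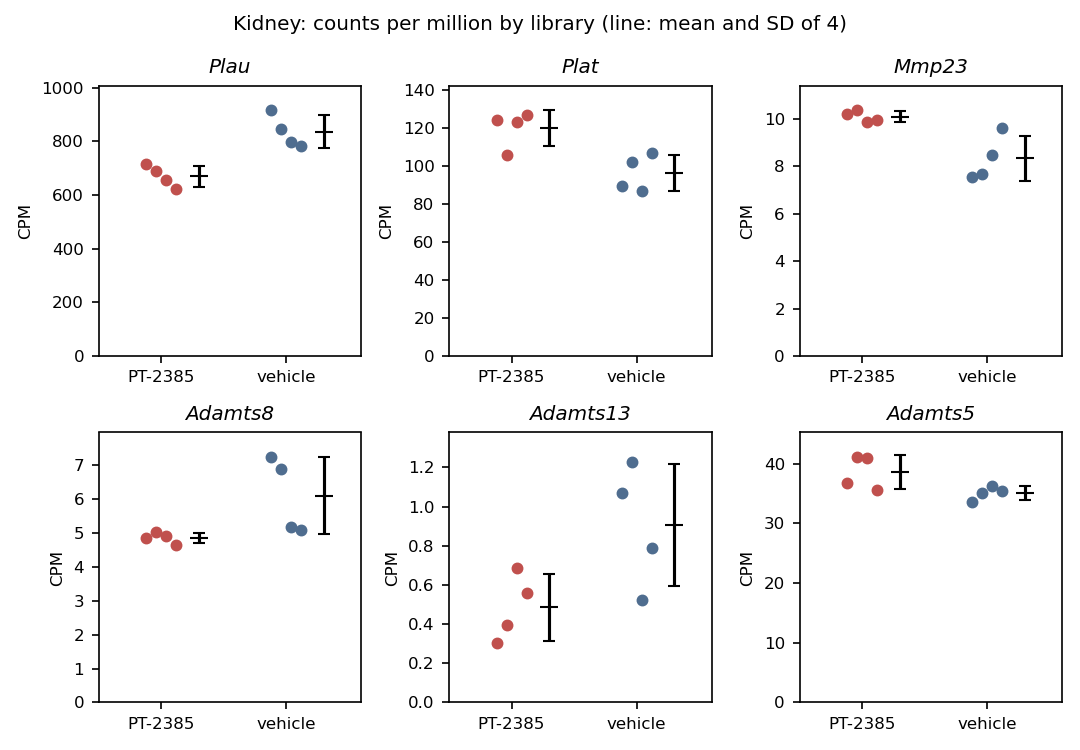
CPM in each kidney library for the 6 members with the smallest p in kidney, PT-2385 left of vehicle, with the mean and SD of 4 libraries beside the points. Plau averages 670 CPM with PT-2385 against 836 CPM with vehicle, and Plat 120 CPM against 96.4 CPM.

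In kidney, 2 marker lists had summed levels that were apart between the groups, each with 1 member called. The summed macrophage and monocyte markers came to 88.4 to 99.5 CPM in PT-2385 kidneys and 102 to 113 CPM in vehicle kidneys, without overlap, and 1 of 7 (Csf1r, edgeR adjusted p = 0.0251, log2 fold change −0.27) was called. Smooth muscle and pericyte markers summed to 396 to 435 CPM with PT-2385 and 350 to 391 CPM with vehicle, also without overlap, with 1 of 4 (Myh11, edgeR adjusted p = 0.0298, log2 fold change 0.26) called. The 5 proximal tubule markers summed to 17581 to 19521 CPM with PT-2385 and 18742 to 20948 CPM with vehicle, with Cubn called lower (edgeR adjusted p = 0.0288, log2 fold change −0.44). None of these lists had a marker at 0, and their part in the values of Plau and Plat was not tested.

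The difference between the organs was tested as an interaction over 16 libraries, with the kidney response taken from the ovary response. Of the 41 members tested 0 were called, against 0.19% of all genes. At an unadjusted p under 0.05, 3 members had a higher and 8 a lower response in ovary than in kidney in edgeR, where 6.37% and 5.63% of all genes did. DESeq2 called 5 members (Adamts15, Adamts16, Adamts4, Mmp15 and Plau) among 304 genes in all, and limma-voom called 0 members among 28 genes. The interaction was estimated in a fit of its own and so differs slightly from the gap between the values of each organ's fit. The smallest p belonged to Adamts16, whose log2 fold change was −1.11 in ovary and 0.09 in kidney, with an interaction of −1.19 (edgeR adjusted p = 0.0827, SE 0.282). For Plau these were 0.20 and −0.32, with an interaction of 0.54 (edgeR adjusted p = 0.13, SE 0.146). For Mmp15 they were −0.37 and 0.16, with an interaction of −0.51 (edgeR adjusted p = 0.143, SE 0.142), and for Mmp23 −0.22 and 0.28, with an interaction of −0.48 (edgeR adjusted p = 0.157, SE 0.137). Without ovary vehicle replicate 3 the edgeR adjusted p was 0.0138 for Adamts16, 0.00899 for Plau, 0.0239 for Mmp15 and 0.0138 for Mmp23. In that fit 5 of the 41 members were called, among 813 of 20332 genes, where all 16 libraries gave 38 of 19977 genes. With edgeR and all 16 libraries, the responses of Plau in the organs were thus not shown to differ, while DESeq2 called their difference (adjusted p = 0.0398).

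In kidney Adamts16 had 6.87, 8.01, 6.69 and 6.17 CPM with PT-2385, against 5.64, 7.22, 6.3 and 6.51 CPM with vehicle. Mmp15 had 9.25, 11.6, 10.7 and 10.2 CPM in the PT-2385 kidneys, against 9.75, 7.97, 9.71 and 9.79 CPM in the vehicle kidneys. In ovary Mmp23 had 37.3, 32.4, 29.6 and 34.2 CPM with PT-2385, against 41.7, 42.4, 31.7 and 39.6 CPM with vehicle. The groups overlapped in each of these 3 cases.

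**Figure D5:**
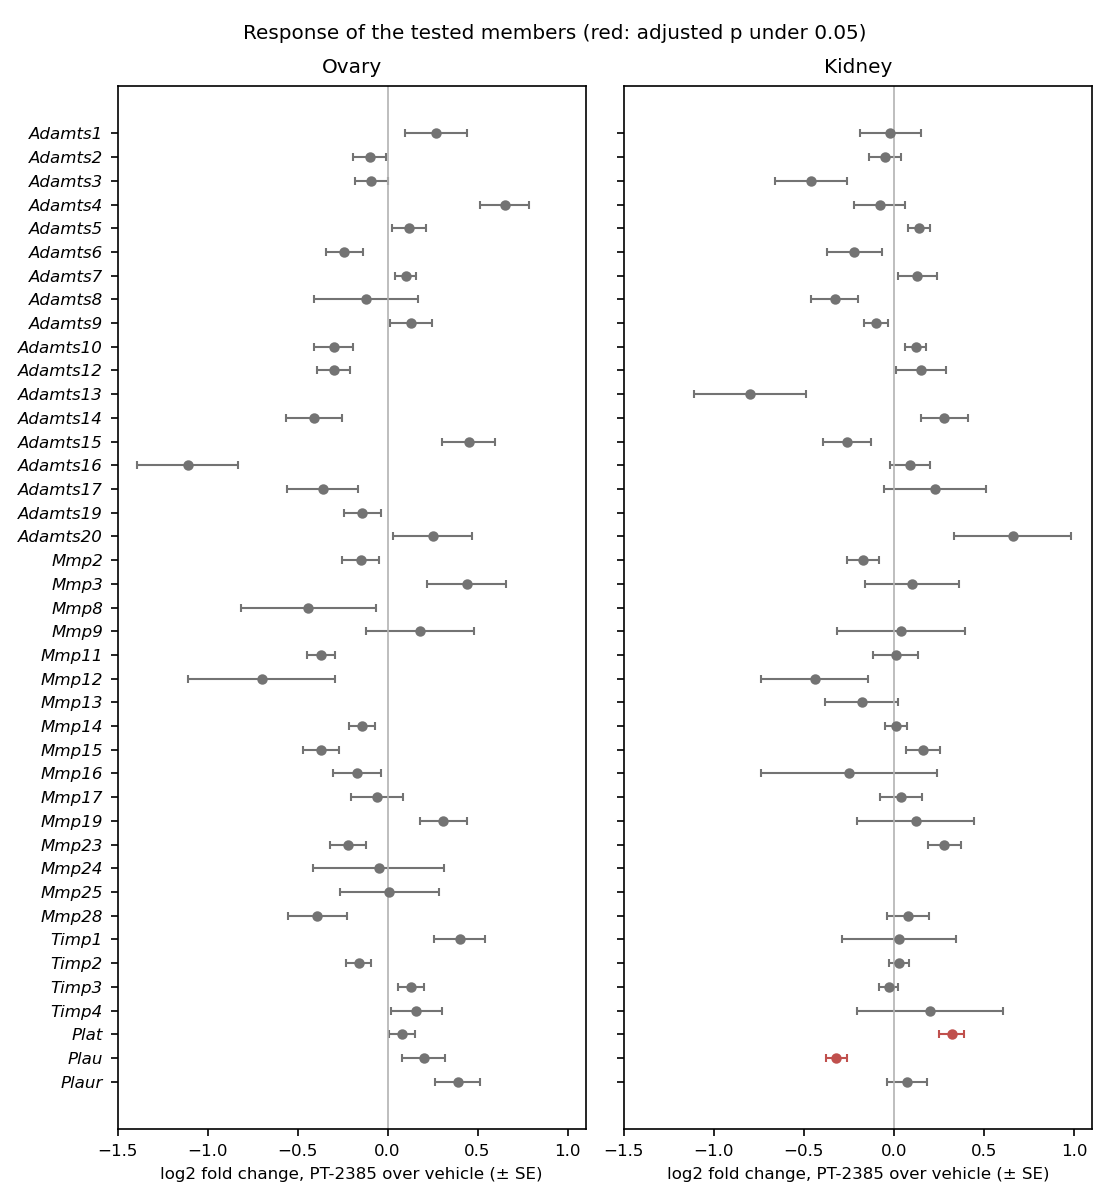
Log2 fold change of PT-2385 over vehicle with its standard error (horizontal axis) for the members tested in ovary (left) or kidney (right), 1 gene a line, in red where the adjusted p was under 0.05. Plat and Plau in kidney are the red points, and a gene with no point in a panel was not tested there.

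The surroundings of the pathway were read from 3 lists. Of 26 inhibitors, receptors and activators of the members, 22 were tested in ovary, with 0 called and a median log2 fold change of −0.02. In kidney 22 were tested, of which 1 rose and 4 fell (median −0.08). Serpinf2, the inhibitor of plasmin itself, fell to 122 ± 6.77 CPM with PT-2385, against 168 ± 13.1 CPM with vehicle (log2 fold change −0.47, edgeR adjusted p = 0.00128, SE 0.0584). Reck, a membrane-anchored inhibitor of several MMPs, fell to 15.1 ± 0.403 CPM with PT-2385, against 18.6 ± 1.76 CPM with vehicle (edgeR adjusted p = 0.0272, log2 fold change −0.31). Furin, the convertase that activates many ADAMTS and membrane-type MMP precursors, had a log2 fold change of −0.21 (edgeR adjusted p = 0.0307), and Hpn, the serine protease hepsin, one of −0.19 (edgeR adjusted p = 0.025). Anxa2, a cell surface receptor for plasminogen and PLAT, rose to 110 ± 1.52 CPM with PT-2385, against 94.5 ± 9.26 CPM with vehicle (edgeR adjusted p = 0.0394, log2 fold change 0.22).

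Of 28 matrix substrates and cofactors, 27 were tested in ovary, with 0 called and a median of 0.07, and 25 in kidney, where Nid2, a basement membrane linker, fell (edgeR adjusted p = 0.0304, log2 fold change −0.22) and the median was −0.05. Of 21 other proteases and relatives of these families, 18 were tested in ovary with 0 called (median −0.00). In kidney 19 were tested: Adamtsl4, an ADAMTS-like matrix protein without protease activity, rose (edgeR adjusted p = 0.0172, log2 fold change 0.40), while Mep1a, the brush border metalloprotease meprin α (edgeR adjusted p = 0.0218, log2 fold change −0.44), and Adam9 (edgeR adjusted p = 0.0379, log2 fold change −0.19) fell. The 0 called in ovary in these lists is to be read beside 0.0497% of all genes, and the kidney calls beside 5.53%. Without kidney PT-2385 replicate 3 the kidney calls over all genes were 240 of 17983. The calls in these lists were not read without that library.

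The members below the count filter were Adamts13, Adamts18, Mmp1b, Mmp7, Mmp10, Mmp13, Mmp20, Mmp21 and Mmp27 in ovary, 9 genes. In kidney they were Adamts18, Adamts19, Mmp1b, Mmp7, Mmp8, Mmp10, Mmp20, Mmp21, Mmp24, Mmp25 and Mmp27, 11 genes. Mmp1b was at 0 counts in every kidney library, and Mmp20, the enamel protease, had 1 count over the 4 vehicle ovaries and 2 over the 4 vehicle kidneys. Mmp8, the neutrophil collagenase, and Mmp12, the macrophage elastase, were at 1.42 CPM or less in every library of either organ. No difference was tested for the members below the filter.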

How the data were processed

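Whole ovary and whole kidney were sequenced with 4 libraries in each of the 4 groups. Per the labels' protocols, a stranded mRNA kit was used, with ovary RNA from a column kit and kidney RNA from Trizol. The deposited counts are read pairs assigned to genes by featureCounts 2.0.6 over GENCODE vM27 basic exons, per the file headers, which record no strand option. STAR and FastQC are named with GRCm39 in the submitters' processing notes, with no version. GENCODE M21 gave symbols and biotypes, matched by identifier, for 94.1% of the identifiers. Mmp1a is a pseudogene there and stands outside the rule. Between replicates the counts differed by more than sampling noise, so no library was a copy.

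Each organ was tested by edgeR 4.0.16 (robust quasi-likelihood test, TMM scaling, filterByExpr at a count of 10 and a total of 15, R 4.3.3, limma 3.58.1), and the interaction over 16 libraries, with Benjamini-Hochberg adjustment over all genes and a threshold of 0.05. The standard error was the absolute log2 fold change divided by the square root of the F value. CPM are after TMM scaling within the organ. The level per length used the deposited exon lengths and was not tested. At low counts the counting error limits the precision. The scripts were also tested on simulated data. Members and lists were chosen with earlier results of these data known. Every library is given for a fixed set: Adamts1, Adamts4, Mmp11, Plat, Plau, Plaur and the TIMP genes, called members, the 6 smallest p per organ, the 4 smallest p for the interaction and the 4 highest levels per organ. Values of Adamts7 and Adamts15 in ovary were added after they were seen. Alternatives were other scalings, DESeq2 1.42.0, limma-voom, other filters, a replicate block, a fit of 16 libraries and each library left out. The non-overlap counts with a library left out were added after the data had been seen. Both libraries with deviating file names were kept in their labelled groups. Some genes that the rule selects are left out of the text.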

Additional observations from a re-analysis of the deposited data

Results flagged for a closer look

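In 56 groups of 4 libraries of the members given by library, 2 held a library far from the others of its group by Dixon's criterion, which chance alone meets in about 1 of 20 groups. Adamts4 in ovary PT-2385 replicate 3 stood at 225 CPM, where the other 3 PT-2385 ovaries were between 162 and 171 CPM. Adamts12 in ovary vehicle replicate 2 stood at 53.9 CPM, where the other 3 vehicle ovaries were between 46.9 and 47.4 CPM.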

How the results depend on the processing

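Members called in ovary numbered 0 as reported, 3 with DESeq2, 5 with no filter on low counts, 3 in the fit of all 16 libraries, and between 0 and 6 with each library left out. Calls over all genes were 9 as reported and 323, 330 and 325 in those alternatives. The 6 came without vehicle replicate 3, with 1090 genes called. In kidney the 2 calls were 0 in the fit of all 16 libraries and between 1 and 3 with each library left out. Over all genes, kidney calls were 982 as reported, 286 in the fit of all 16 libraries and between 240 and 1370 with each library left out. Plau passed in 15 and Plat in 12 of 16 alternatives. For the interaction the 0 calls became 5 with DESeq2, 2 with no filter, 4 without both libraries with deviating file names (304, 167 and 378 genes in all, against 38), and between 0 and 5 with each library left out. Over all genes, interaction calls ran from 0 to 813 with each library left out. With a replicate block the calls were 4 (ovary), 2 (kidney) and 4 (interaction), among 395, 1274 and 263 genes in all. Deviations of libraries with the same number correlated between −0.17 and 0.24 in ovary and between −0.06 and 0.05 in kidney. Across organs they correlated between −0.04 and 0.09. The best partner had the same number in 2 of 4 cases in ovary, 2 of 4 in kidney and 6 of 8 across organs. Within an organ the numbers are thus not shown to pair the samples. Across organs the exceptions were replicate 3 in each treatment, and whether libraries of the same number share an animal was not tested. The interaction took all 16 libraries as independent, and the replicate block did not link the organs. The count of members whose groups do not overlap ran from 10 to 17 in ovary and from 4 to 9 in kidney with each library left out. Signs turned for 7 kidney members that no alternative called. Mmp11 was −0.00 with DESeq2 and −0.01 in the fit of all 16 libraries, Timp1 −0.04 with limma-voom, and Adamts1 0.00 with the replicate block. With each kidney library left out, log2 fold changes ran from −0.10 to 0.15 for Adamts1, −0.10 to 0.08 for Mmp11, −0.00 to 0.15 for Plaur, −0.25 to 0.25 for Timp1, −0.00 to 0.06 for Timp2, −0.06 to 0.01 for Timp3 and −0.30 to 0.53 for Timp4. None of the other 25 member estimates that were recomputed changed sign. The cause of these shifts was not tested. Depth limits members under about 1 CPM.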
